A study of Mus musculus with 12 samples.

Results

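Hair cell transcription factors are the regulators that make a cell of the sensory epithelium a hair cell and keep it one. The 8 genes described here are *Pou4f3*, *Gfi1*, *Atoh1*, *Barhl1*, *Lhx3*, *Insm1*, *Rfx1* and *Rfx3*, and they were taken by name from a table of expression values for 37432 genes. All 8 have 1 row each in the table. They were followed in the mouse cochlea, the coiled hearing organ of the inner ear, at postnatal day 14 (P14), in wild-type and *Gjb2* 35delG homozygous mice. *Gjb2* encodes connexin 26, a gap junction protein of the cells around the hair cells, and 35delG is a deletion of a single G in it. The cochlea was cut into apical, middle and basal turns, and each combination of genotype and turn has 2 libraries, called repeat 1 and repeat 2, which gives 12 libraries in 6 groups. The sample labels give the genotypes as WT and KO.

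Tetraploid complementation with embryonic stem cells gave the homozygous mice, all male and nursed by ICR females, on a background close to C57BL/6J. The wild-type controls were bought males of the same age. Genotype and origin of the mice cannot be told apart in any comparison between genotypes. How many mice, cochleae or stem cell lines went into a library is not given in the sources used here, so the p-values measure the spread between these libraries. The values are FPKM, in which fragments are divided by transcript length and by the mapped fragments of the library, so that they can be compared between genes, and they were scaled between libraries. The depth behind them is unknown, so no counting error can be given. A gene was tested if it reached 1 FPKM in 2 or more libraries, which held for 16215 genes and for 6 of the 8 factors. *Atoh1* and *Insm1* did not reach it. A log2 fold change is the difference of log2(scaled FPKM + 1), which understates the change of low genes, and the calls use the thresholds of the study, a fold change of more than 2 with an adjusted p below 0.01. All adjusted p-values are from limma with Benjamini-Hochberg adjustment over the genes tested.

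In the embryo, ATOH1, a basic helix-loop-helix activator, starts the hair cell fate in cells of the prosensory epithelium, and its level falls as the cells mature. POU4F3, a POU homeodomain protein switched on by ATOH1, is needed for hair cells to differentiate and survive, and mutations of its human counterpart cause progressive deafness. GFI1, a zinc finger repressor, acts downstream of POU4F3 and keeps neuronal genes off in hair cells. BARHL1 and LHX3 are homeodomain proteins of differentiated hair cells, INSM1 is a zinc finger protein of nascent outer hair cells, and RFX1 and RFX3 are winged helix proteins that act together in the terminal differentiation of outer hair cells and also control genes of cilia.

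The libraries differed in what else they held, and this bears on every value below. Genes of the spiral ganglion neuron list, taken as a sum of 12 genes, reached 2912 and 3117 scaled FPKM in the homozygous basal libraries, against 15.7 and 809.7 in the wild-type basal libraries and 1523 and 1670 in the wild-type middle libraries. Over the genes tested, each wild-type basal library lay closest to a homozygous middle library and not to the other wild-type basal library. Only 6 of the 12 libraries had their own repeat as the nearest library. Whether the pieces named middle and basal correspond between the genotypes cannot be told from the values, so each comparison between genotypes below sets pieces against each other as they are labelled. The level of *Gjb2* was not used to check the labels, because these values do not separate the alleles. Its log2 fold change was 0.49 (adjusted p = 0.658) in the apical, 0.81 (adjusted p = 0.319) in the middle and −1.94 (adjusted p = 0.0238) in the basal turn. All 25 genes of a hair cell list (motor, transduction, synapse and bundle genes such as *Myo6*, *Tmc1*, *Otof* and *Espn*) passed the filter, and none was at 0 in both repeats of any group.

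Sequences at the transcript starts of *Gfi1*, *Barhl1* and *Lhx3* are shown because these genes were low together in the homozygous basal libraries, as described below. RefSeq windows of GRCm38.p6 ran from 250 bases before to 50 bases after a transcript start. No window was used for *Pou4f3* or *Insm1*, so the counts of windows below do not cover these factors. For the other 6 of the 8 factors, 9 windows were used. They were searched on both strands for 5 words, namely the E box CAGNTG that ATOH1 can bind, ATTAAT for POU4F factors, AATCAC for GFI1, TAATTG for homeodomain factors and GTTNCC for RFX factors. Matches are in capitals below, and each sequence reads 5′ to 3′ on the strand of its gene.
Gfi1, chr5:107725756-107726055, minus strand: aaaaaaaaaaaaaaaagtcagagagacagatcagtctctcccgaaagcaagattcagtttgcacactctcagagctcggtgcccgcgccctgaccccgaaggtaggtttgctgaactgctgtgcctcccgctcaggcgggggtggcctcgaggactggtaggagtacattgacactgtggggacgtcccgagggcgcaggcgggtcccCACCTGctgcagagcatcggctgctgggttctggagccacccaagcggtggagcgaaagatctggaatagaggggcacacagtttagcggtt
Barhl1, first start, chr2:28916619-28916918, minus strand: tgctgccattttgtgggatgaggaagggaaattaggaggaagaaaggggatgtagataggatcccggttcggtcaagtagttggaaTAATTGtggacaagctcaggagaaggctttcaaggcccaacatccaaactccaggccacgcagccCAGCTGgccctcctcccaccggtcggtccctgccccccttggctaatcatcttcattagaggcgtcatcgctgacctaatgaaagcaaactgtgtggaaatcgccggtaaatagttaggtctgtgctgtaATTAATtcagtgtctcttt
Barhl1, second start, chr2:28912446-28912745, minus strand: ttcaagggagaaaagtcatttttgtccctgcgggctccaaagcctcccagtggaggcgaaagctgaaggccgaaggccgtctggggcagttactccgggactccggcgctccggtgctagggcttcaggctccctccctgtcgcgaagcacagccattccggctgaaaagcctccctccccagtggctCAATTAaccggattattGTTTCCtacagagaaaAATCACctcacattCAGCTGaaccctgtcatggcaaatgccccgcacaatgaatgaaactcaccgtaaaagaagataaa
Lhx3, second start, chr2:26206526-26206825, minus strand: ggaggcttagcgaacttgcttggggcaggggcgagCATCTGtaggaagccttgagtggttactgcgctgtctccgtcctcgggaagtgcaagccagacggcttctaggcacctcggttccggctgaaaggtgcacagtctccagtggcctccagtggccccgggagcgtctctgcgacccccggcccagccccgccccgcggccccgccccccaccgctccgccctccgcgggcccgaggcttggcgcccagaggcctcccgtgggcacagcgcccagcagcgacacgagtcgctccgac
The *Gfi1* window holds an E box that begins at −42, counted from the start as +1 with no position 0. The first *Barhl1* window holds a homeodomain word at −164, an E box at −99 and the POU4F word at position 32 of the transcript. The second *Barhl1* window holds the homeodomain, RFX, GFI1 and E box words at −62, −45, −29 and −15. In the *Lhx3* window an E box begins at −215.

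The E box and RFX words are common, and a match to any of the 5 words describes the letters only. An E box was in 5 of the 9 windows and in 51.4% of all 32851 RefSeq windows of this length. The POU4F word was in 1 of 9 windows and in 4.75% of all windows, and the GFI1 word in 1 of 9 and in 10.4%. The homeodomain word was in 2 of 9 windows and in 8.0% of all windows, and the RFX word in 3 of 9 and in 45.3%. The windows of *Rfx1* and *Rfx3* held the RFX word, and in *Rfx1* it overlaps an E box. No word was found in the *Atoh1* window, in the other *Gfi1* window or in the other *Lhx3* window.

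*Pou4f3* (ENSMUSG00000024497.4, protein coding, chromosome 18, 42394539 to 42397249, plus strand of GRCm38) had the highest mean of the 8 over the 12 libraries. It was below *Rfx1* in both homozygous basal libraries and in wild-type middle repeat 1, and below *Gfi1* in wild-type basal repeat 2. In the wild-type mice its scaled FPKM was 19.1 and 19.4 in the apical turn, 2.63 and 8.20 in the middle turn and 13.3 and 7.77 in the basal turn, repeat 1 first. In the homozygous mice it was 8.58 and 7.62 in the apical turn, 5.86 and 7.78 in the middle turn, and listed at 0 and at 0.439 in the basal turn. The wild-type apical libraries were the highest and the homozygous basal libraries the lowest of the 12, with no overlap with any other group. The 4 groups between them overlapped from one to the next in the order wild-type basal, homozygous apical, homozygous middle and wild-type middle.

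In the homozygous basal turn *Pou4f3* fell by 3.22 on the log2 scale (standard error 0.41, adjusted p = 0.00476), with both homozygous libraries below both wild-type libraries. Of the genes tested, 4.29% were called in the basal turn in either direction and 1.76% were called lower. The apical difference was −1.16 (adjusted p = 0.216) and did not pass the test, although both homozygous libraries were lower there too. In the middle turn the libraries of the genotypes overlapped and the difference was 0.43 (adjusted p = 0.559). The basal call was lost when any apical library, any homozygous basal library or wild-type basal repeat 1 was left out, 7 of the 12 libraries, and the adjusted p lay between 0.00196 and 0.0215 over the 12 fits. The fold change itself lay between −3.58 and −2.87.

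*Gfi1* (ENSMUSG00000029275.18, protein coding, chromosome 5, 107716657 to 107725805, minus strand) had a lower mean than *Pou4f3* and *Rfx1* over the 12 libraries. Its scaled FPKM in the wild-type apical, middle and basal turns was 5.63 and 7.40, 0.566 and 2.36, and 4.64 and 8.56. In the homozygous turns it was 2.77 and 2.55, 3.01 and 2.53, and 0.0918 and 0.112. The wild-type apical and basal libraries were the highest and overlapped, the homozygous apical and middle libraries overlapped below them, the wild-type middle libraries lay lower still, and the homozygous basal libraries were the lowest.

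*Gfi1* in the homozygous basal turn fell by 2.74 on the log2 scale (standard error 0.36, adjusted p = 0.00484). Its apical difference was −1.03 (adjusted p = 0.210) and its middle difference 0.71 (adjusted p = 0.256), with no overlap between the genotypes in either turn. The basal call was lost without any of the 4 apical or the 2 homozygous basal libraries, with adjusted p between 0.00386 and 0.0215 over the 12 fits. GFI1 is also known from blood cell precursors, and a list of 12 neutrophil and progenitor genes summed to 433 and 2049 scaled FPKM in the wild-type basal and to 126 and 171 in the homozygous basal libraries. The middle turn gave sums of 44.1 and 252 for the wild-type repeats and of 6493 and 352 for the homozygous repeats, and the homozygous library with 6493 had a *Gfi1* level of 3.01, against 2.53 in its repeat. In the basal turn 12 of its 12 genes had a negative log2 fold change and in the middle turn 12 of 12 a positive one, with 0 called and 0 and 5 at an unadjusted p under 0.05, and none was at 0 in both repeats of a group. The part of these cells in the *Gfi1* values was not tested.

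*Barhl1* (ENSMUSG00000026805.14, protein coding, chromosome 2, 28907679 to 28916668, minus strand) is known for the long-term maintenance of hair cells. Its scaled FPKM was 2.45 and 2.52, 0.113 and 0.604, and 1.11 and 1.13 in the wild-type apical, middle and basal turns. In the homozygous turns it was 1.59 and 1.14, 0.732 and 0.987, and 0.0344 and 0.0242. No neighbouring groups overlapped in the order wild-type apical, homozygous apical, wild-type basal, homozygous middle, wild-type middle and homozygous basal. The basal difference was −1.05 (standard error 0.22, adjusted p = 0.0155), with both homozygous libraries lower, and was not called. With a pseudocount of 0.1, which compresses such low levels less, it was −3.24 (adjusted p = 0.00923). In 18 of 20 alternative fits the basal difference stayed uncalled.

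For *Barhl1*, the apical difference was −0.57 (adjusted p = 0.257) and the middle difference 0.47 (adjusted p = 0.222). BARHL1 is also known from granule cells of the cerebellum. In a list of 10 cerebellar and cochlear nucleus genes, 4 passed the filter. It summed to 49.8 and 52.4 scaled FPKM in the wild-type basal libraries and 43.4 and 56.8 in the homozygous ones, which overlapped. Most of these sums was *Zic2*, with 45.1 and 40.5 against 36.0 and 37.8. *Zic1* had 0.721 and 8.09 against 4.29 and 14.97, a difference of 1.22 (adjusted p = 0.403). Of the 4 genes tested, 2 had a negative and 2 a positive basal difference. The part of such cells in the *Barhl1* values was not tested.

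*Lhx3* (ENSMUSG00000026934.15, protein coding, chromosome 2, 26200212 to 26208289, minus strand) is a LIM homeodomain gene. In the wild-type apical, middle and basal turns it had 1.14 and 1.30, 0.121 and 0.418, and 1.14 and 3.33 scaled FPKM. The homozygous turns had 1.29 and 1.02, 0.802 and 0.937, and 0.0610 and 0.0505. The wild-type basal group was the highest and the most spread, and it overlapped with both apical groups. The homozygous middle, wild-type middle and homozygous basal libraries followed below them without overlap. Its basal difference was −1.53 (standard error 0.31, adjusted p = 0.0133) and was not called. With a pseudocount of 0.1 it was −3.73 (adjusted p = 0.00750), but in 16 of 20 alternative fits it stayed uncalled. With a library left out it lay between −2.04 and −1.02. The apical genotypes overlapped, with a difference of −0.04 (adjusted p = 0.963). In the middle turn both homozygous libraries were higher, by 0.57 (adjusted p = 0.290).

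**Figure D1:**
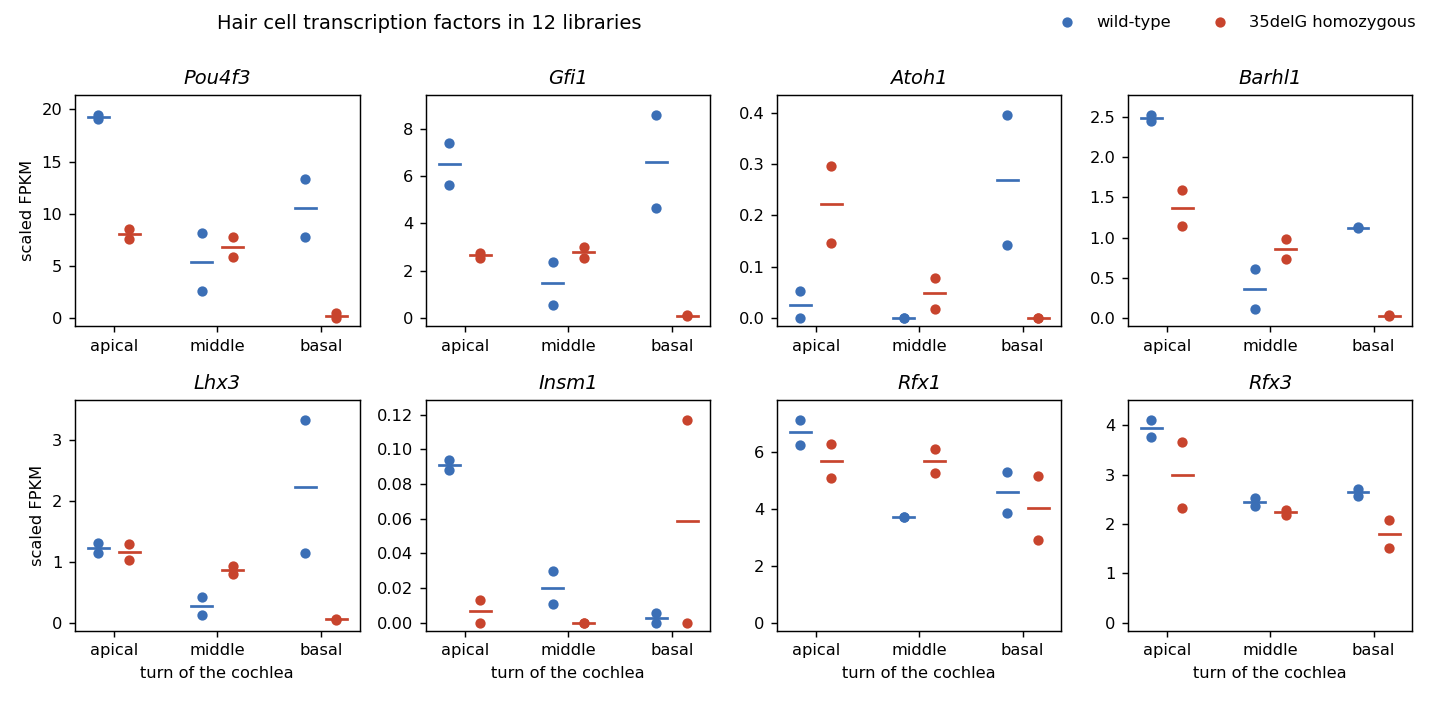
Scaled FPKM (y axis, linear, a separate range for each gene) of the 8 transcription factors in each library, by turn of the cochlea (x axis), with wild-type libraries in blue and 35delG homozygous libraries in red. Points are the 2 libraries of a group and the short line is their mean; *Pou4f3*, *Gfi1*, *Barhl1* and *Lhx3* are at or near 0 in both homozygous basal libraries, while *Rfx1* and *Rfx3* are not.

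*Rfx1* (ENSMUSG00000031706.7, protein coding, chromosome 8, 84066834 to 84096992, plus strand) and *Rfx3* (ENSMUSG00000040929.17, protein coding, chromosome 19, 27761721 to 28011140, minus strand) stayed well above 0 in every library. *Rfx1* had 7.12 and 6.25, 3.71 and 3.70, and 5.29 and 3.87 scaled FPKM in the wild-type apical, middle and basal turns. Its homozygous values were 6.26 and 5.10, 5.25 and 6.09, and 5.16 and 2.90. Neighbouring groups overlapped throughout the order of levels, from wild-type apical down to wild-type middle, and within the middle turn both homozygous libraries were above both wild-type libraries.

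For *Rfx1* the apical genotype difference was −0.20 (adjusted p = 0.728), the middle one 0.50 (adjusted p = 0.223) and the basal one −0.17 (standard error 0.24, adjusted p = 0.657). *Rfx3* had 3.77 and 4.11, 2.36 and 2.53, and 2.71 and 2.57 scaled FPKM in the wild-type turns. In the homozygous turns it had 3.67 and 2.33, 2.29 and 2.19, and 2.07 and 1.52. The order ran from wild-type apical through homozygous apical, wild-type basal, wild-type middle and homozygous middle to homozygous basal, and of these neighbours only homozygous apical and wild-type basal overlapped. Both homozygous libraries of *Rfx3* lay below both wild-type libraries in each turn, with log2 fold changes of −0.32, −0.09 and −0.39 from apex to base, and none of these differences passed the test (adjusted p = 0.462, 0.817 and 0.217).

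*Atoh1* (ENSMUSG00000073043.5, protein coding, chromosome 6, 64729125 to 64731245, plus strand) was at most 0.395 scaled FPKM. It was listed at 0 and at 0.0524 in the wild-type apical libraries, at 0 in both wild-type middle libraries, and had 0.142 and 0.395 in the wild-type basal libraries. The homozygous libraries had 0.297 and 0.146 in the apical turn and 0.0790 and 0.0174 in the middle turn, and it was listed at 0 in both of the basal turn. *Insm1* (ENSMUSG00000068154.5, protein coding, chromosome 2, 146221921 to 146225020, plus strand) was at most 0.117, in homozygous basal repeat 2, followed by 0.0940 and 0.0879 in the wild-type apical libraries. The other 9 libraries were at 0.0295 or less. With genotypes exchanged within turns in an exact two-sided permutation test, the mean difference on the log2 scale was −0.0065 for *Atoh1* (p = 1) and −0.02 for *Insm1* (p = 0.593), and the smallest p this design allows is 0.00926.

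Of the 6 factors tested, 2 were called in the basal turn, *Pou4f3* and *Gfi1*, both lower, and 4 had an unadjusted p under 0.05, all lower, against 5249 of all genes. No factor was called in the apical turn (3 at an unadjusted p under 0.05, all lower, against 2663 of all genes) or in the middle turn (0 at p under 0.05, against 4118), where 0.179% of the genes were called in each. Averaged over the turns no factor was called, against 0.376% of the genes, and *Pou4f3* had −1.32 (adjusted p = 0.0299) and *Gfi1* −1.02 (adjusted p = 0.0454). Both homozygous libraries lay below both wild-type libraries for 4 of the 6 in the apical turn and for 5 of the 6 in the basal turn, against 32.1% and 27.8% of the genes tested. In the middle turn both lay above for 4 of the 6, against 31.3%. The basal calls came from a fit in which all 6 groups share the estimate of the spread. With the 4 basal libraries alone 0 of the genes tested were called, so that fit says nothing about these factors in particular.

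**Figure D2:**
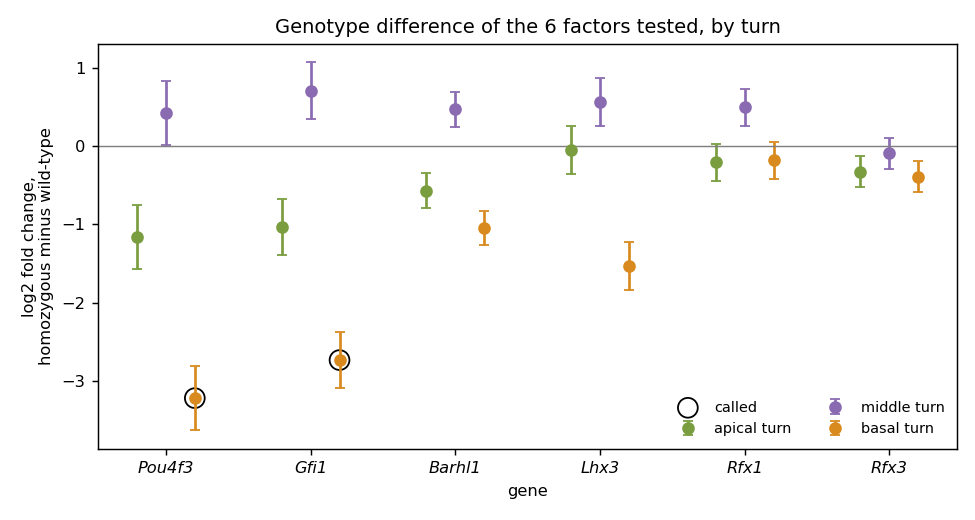
Log2 fold change (y axis, homozygous minus wild-type, of scaled FPKM + 1) of the 6 factors tested (x axis) in the apical (green), middle (purple) and basal (orange) turn. Bars are 1 standard error of the limma fit on either side and circles mark calls; the basal points of *Pou4f3* (−3.22) and *Gfi1* (−2.74) are circled, and the middle points of 5 factors are above 0.

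The genotype difference itself was compared between turns, with the pieces as labelled. The basal minus middle difference of the effect was −3.65 for *Pou4f3* (standard error 0.58, adjusted p = 0.00426) and −3.45 for *Gfi1* (standard error 0.51, adjusted p = 0.00359), and both were called, against 8.91% of the genes tested. It was −1.52 for *Barhl1* (adjusted p = 0.0107) and −2.10 for *Lhx3* (adjusted p = 0.0111), which were not called. The call of *Pou4f3* was lost without either wild-type apical library, wild-type basal repeat 1, either homozygous middle library or homozygous basal repeat 1, and that of *Gfi1* without either homozygous middle library or homozygous basal repeat 1. The highest adjusted p over these fits was 0.0150 and 0.0109. No factor was called for the basal minus apical difference of the effect, against 0.796% of the genes. There 3 factors had an unadjusted p under 0.05, against 4598 of all genes. The middle minus apical difference had 0 factors and 0% of the genes called. Its unadjusted p was under 0.05 for 3 factors and 1306 of all genes.

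Along the cochlea of the wild-type mice, all 6 factors tested had their lowest mean in the middle turn. The middle minus apical difference was −1.81 for *Pou4f3* (adjusted p = 0.0977), −1.70 for *Gfi1* (adjusted p = 0.0849) and −1.38 for *Barhl1* (adjusted p = 0.0440). None was called, against 0.0863% of the genes, and 6 of 6 had an unadjusted p under 0.05, all lower in the middle turn, against 3219 of all genes. Between the wild-type basal and apical turns no factor was called, again against 0.0863% of the genes. Of the factors, 1 had an unadjusted p under 0.05, against 3297 of all genes. Between the wild-type basal and middle turns 0% of the genes and no factor were called, and 4 factors had an unadjusted p under 0.05, all higher in the basal turn, against 2472 of all genes.

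In the homozygous mice the calls were between the basal turn and the other turns. No factor and 0% of the genes were called between the homozygous middle and apical turns, with 0 factors and 429 genes at an unadjusted p under 0.05. *Pou4f3* was called lower in the basal than in the apical turn, with −2.92 (adjusted p = 0.00570), against 4.06% of the genes, and lower in the basal than in the middle turn, with −2.69 (adjusted p = 0.00576), against 4.66%. Both calls were lost with a replicate block, without a filter and with only the libraries compared. They were also lost without any apical or any homozygous basal library (6 of 12 fits), and the second also without either homozygous middle library (8 of 12). *Gfi1* had −1.73 (adjusted p = 0.0145) and −1.77 (adjusted p = 0.0131) in the same comparisons and was not called. Set against the other genotype's other turn, the homozygous basal libraries differed from the wild-type middle libraries by −2.27 for *Pou4f3* (adjusted p = 0.0656), with 0 factors and 0.117% of the genes called. The homozygous middle libraries differed from the wild-type basal libraries by −0.53 for *Pou4f3* (adjusted p = 0.878). There 0 factors and 0.0802% of the genes were called. Against wild-type middle and wild-type basal alike, 2 factors had an unadjusted p under 0.05, where 2267 and 1132 of all genes did.

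The 25 genes of the hair cell list are those that differentiated hair cells use for their motors, transduction, synapses and bundles. Summed over its 25 genes, the level was 830 and 820 scaled FPKM in the wild-type apical, 110 and 236 in the middle and 280 and 264 in the basal libraries. The homozygous libraries had 517 and 434, 330 and 569, and 82.4 and 96.4. The homozygous basal libraries were again the lowest, and both homozygous middle libraries were above both wild-type middle libraries. *Ocm* alone had 159 and 305 scaled FPKM in the homozygous middle libraries and 0.345 and 20.2 in the wild-type middle ones. Most of the gap between the middle sums thus came from this gene. In bulk tissue, fewer hair cells in a piece and less RNA of the listed genes per hair cell cannot be told apart. In cochleae stained at P14, the study reported intact hair cells in the homozygous mice. The number of hair cells in the pieces sequenced was not tested. The 8 factors summed to 28.4 and 27.6 in the wild-type basal libraries and 7.42 and 5.16 in the homozygous ones.

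In the basal turn 23 of the 25 hair cell genes had a negative log2 fold change, with a median of −1.16 against −0.02 over all genes tested, and 20 had an unadjusted p under 0.05, against 5249 of all 16215 genes. Of these, 3 were called, all lower, where 4.29% of the genes were called and 1.76% called lower. The 3 calls became 0 with only the basal libraries, where 0 of all genes were called, and 1 with library weights, where 22 were called. *Ush1c*, which encodes harmonin of the hair bundle, had 32.4 and 42.5 scaled FPKM in the wild-type basal libraries and 0.390 and 0.102 in the homozygous ones and fell by 4.94 on the log2 scale (adjusted p = 0.000831). *Otof*, the calcium sensor of the inner hair cell synapse, went from 32.2 and 20.7 to 0.0982 and 0.109, with −4.60 (adjusted p = 0.00162). *Espn*, an actin bundling protein of stereocilia, had 10.2 and 15.95 against 2.04 and 1.25, with −2.40 (adjusted p = 0.00932).

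The 3 highest genes of the list did not pass the test in the same libraries. *Myo6*, the unconventional myosin of the hair cell body, had 47.8 and 32.4 against 24.8 and 17.3, a difference of −0.89 (adjusted p = 0.0454). *Cib2*, a calcium-binding protein of the transduction complex, had 50.04 and 16.3 against 28.5 and 35.6, a difference of 0.15. *Ocm*, the calcium buffer oncomodulin of outer hair cells, had 21.2 and 46.6 against 3.15 and 0.388, and its basal difference was −3.76 (adjusted p = 0.0437).

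In the apical turn the median of the list was −0.69 (23 of 25 genes negative, 10 at an unadjusted p under 0.05, 0 called), against −0.03 over all genes. In the middle turn it was 0.70 (20 of 25 positive, 9 at p under 0.05), against 0.04, and *Slc26a5*, the outer hair cell motor prestin, was called higher with 2.93 (adjusted p = 0.00889). Its wild-type middle libraries had 0.0255 and 0.876 scaled FPKM and the homozygous middle libraries 7.78 and 11.7. No gene of the list was called in the middle turn with a pseudocount of 0.1, without a filter, with a filter of 5 FPKM, with only the middle libraries or with a replicate block, nor in 10 of the 12 fits with a library left out (all but those without a wild-type basal library). The 6 factors had medians of −0.44, 0.49 and −1.29 in the apical, middle and basal turns, so the medians of the factors and of the hair cell genes had the same sign in each turn.

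**Figure D3:**
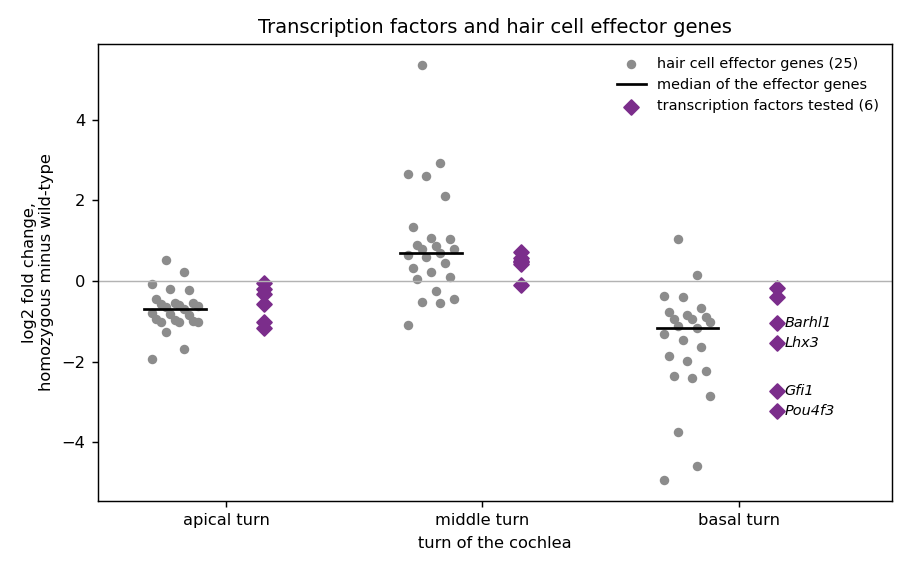
Log2 fold change (y axis, homozygous minus wild-type, of scaled FPKM + 1) of the 25 hair cell genes (grey points, black line at their median) and of the 6 factors tested (purple diamonds) in each turn (x axis). The grey medians are −0.69, 0.70 and −1.16 from the apical to the basal turn, and the 4 labelled factors are the lowest diamonds of the basal turn.

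Genes that stand around these factors were taken as lists of their own. The relatives of RFX1 and RFX3 and the subunits of the RFX complex, 6 of which were tested, had 0 calls in any turn (1, 3 and 2 genes at an unadjusted p under 0.05 from apex to base), with medians of −0.15, −0.03 and 0.11. *Rfxap* and *Rfxank*, which encode subunits of the complex at class II promoters, had basal differences of 0.43 (adjusted p = 0.0404) and −0.16 (adjusted p = 0.647), and *Rfx7* had 0.21 (adjusted p = 0.585). Of 11 motile cilia genes found, 6 were tested, and *Drc1*, a dynein regulator of motile cilia, was called lower in the basal turn with −2.33 (adjusted p = 0.00396). Its wild-type basal repeats had 3.48 and 7.20 scaled FPKM, and the homozygous ones 0.226 and 0.184. The list summed to 89.3 in wild-type basal repeat 2 and to between 8.68 and 13.7 in the other 11 libraries, so that library stood apart.

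Among 8 paralogs of the factors, 3 passed the filter. *Pou4f2*, a POU4F gene of sensory neurons, was called higher in the homozygous basal turn with 2.04 (adjusted p = 0.00932). Its scaled FPKM was 0.0707 and 0.808 in the wild-type basal libraries and 6.25 and 3.50 in the homozygous ones. *Pou4f1*, another POU4F gene of sensory neurons, was listed at 0 and at 1.65 in the wild-type and had 4.31 and 6.81 in the homozygous basal libraries, a difference of 1.98 (adjusted p = 0.0173). The neuron list was higher in the same libraries for 12 of its 12 genes, with a median of 4.17, 0 calls and 11 genes at an unadjusted p under 0.05, and its part in these values was not tested. *Atoh8*, a more distant relative of *Atoh1*, had −0.77 (adjusted p = 0.0605).

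ATOH1 works as a dimer with E proteins and is opposed by ID and HES/HEY proteins, and 12 of 13 such genes were tested. In the basal turn *Hey2*, a repressor known from pillar cells, was called higher with 1.72 (adjusted p = 0.00505), from 2.67 and 3.52 to 11.7 and 13.2 scaled FPKM. *Heyl*, a close relative, was called lower with −2.01 (adjusted p = 0.00822), from 17.2 and 12.9 to 4.75 and 1.69. No gene of the list was called in the other turns (2 and 5 genes at an unadjusted p under 0.05 in the apical and middle turns), and its medians were 0.08, 0.24 and −0.38 from the apical to the basal turn. *Id2* and *Id3*, inhibitors of E proteins and the highest genes of the list, had basal differences of −0.93 (adjusted p = 0.00921, fold change under 2) and −0.58 (adjusted p = 0.0603), and *Id1* had −0.80 (adjusted p = 0.0316).

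Of 12 regulators of the prosensory epithelium tested, 0 were called in any turn (3, 3 and 7 at an unadjusted p under 0.05 from apex to base), with a basal median of −0.38. Its highest genes were *Ldb1*, a LIM cofactor, *Lmo4*, a LIM-only protein that binds it, and *Eya4*, a deafness gene, with basal differences of −0.06, −0.03 and −1.48 (adjusted p = 0.0173 for *Eya4*). Among factors that set hair cell subtype, 6 of 8 were tested and *Tbx2*, which holds the inner hair cell fate, was called lower in the basal turn with −2.30 (adjusted p = 0.00911). Its scaled FPKM was 62.9 and 28.8 in the wild-type basal libraries and 11.7 and 5.16 in the homozygous ones. *Ikzf2*, a factor of outer hair cells, had −0.96 (adjusted p = 0.0276), *Nr2f2* −0.88 (adjusted p = 0.0702) and *Kdm1a* 0.0069 (adjusted p = 0.984).

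Lists of other cells moved in the same basal libraries. Schwann cell genes, 10 in all, summed to 1589 and 5532 scaled FPKM in the wild-type basal libraries and 9247 and 14616 in the homozygous ones, and *Prx*, *Gldn* and *Egr2* were called higher. In the middle turn *Prx* and *Pllp* of that list were called lower. Central glia genes, 10 in all, had 18.7 and 478 in the wild-type basal, 499 and 780 in the homozygous basal and 1477 and 17.9 in the wild-type middle libraries, so repeats of a group differed. Supporting cell genes summed to 285 and 231 in the wild-type basal libraries and 198 and 139 in the homozygous ones. Of 11 tested, 9 had a negative and 2 a positive log2 fold change, with a median of −1.31. *Otog*, which encodes otogelin of the tectorial membrane, was called lower with −4.22 (adjusted p = 0.000968). *Emilin2*, with the highest mean of the list, had 106 and 89.9 against 31.7 and 5.85. *Cdkn1b* and *Prox1* went the other way, with differences of 1.14 (adjusted p = 0.0158) and 2.31 (adjusted p = 0.0142). In these libraries the lymphocyte list summed to 9.50 and 48.3 in the wild-type and to 4.55 and 7.89 in the homozygous mice. The part of these cells in the levels of the factors was not tested.

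**Figure D4:**
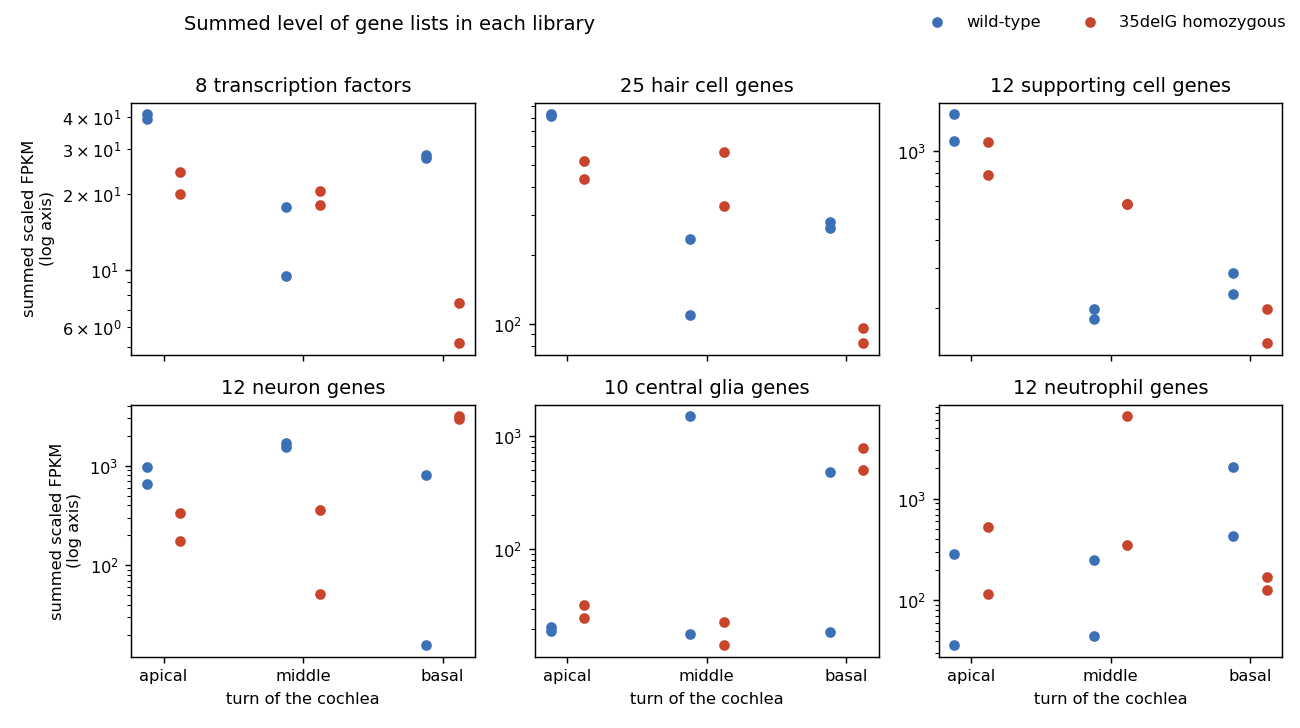
Summed scaled FPKM (y axis, log scale, a separate range for each panel) of the 8 factors and of 5 marker lists in each library, by turn (x axis), with wild-type libraries in blue and homozygous libraries in red. In the basal turn the 8 factors and the hair cell genes are lower in both homozygous libraries (7.42 and 5.16 for the factors), and the neuron genes are higher (2912 and 3117).

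Within the 6 factors tested, levels over the 12 libraries went together to different degrees. Pearson's r of log2(scaled FPKM + 1) was 0.913 for *Pou4f3* with *Barhl1*, 0.907 for *Gfi1* with *Lhx3* and 0.905 for *Pou4f3* with *Gfi1*, and the lowest was 0.379 for *Lhx3* with *Rfx1*. These points share their libraries, turns and tissue make-up, so the values are a description. Among 14632 genes of at least 1 scaled FPKM on average, those most like *Pou4f3* were *Kncn* (r = 0.993), *Acbd7* (0.993) and *Otof* (0.983). For *Gfi1* they were *Pjvk* (0.980), *Espn* (0.966) and *Atp6v1fnb* (0.947).

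Genes most like *Barhl1* were *Otud3* (0.984) and *Fam214a* (0.974), and those most like *Lhx3* were *Ttc26* (0.963), *Atp6v1fnb* (0.955) and *Ppp1r32* (0.944). *Atp6v1fnb* was thus near to both *Gfi1* and *Lhx3*. For *Rfx1* they were *Gak* (0.975), *Mlxip* (0.972) and *Sec16a* (0.971), and for *Rfx3* *Nrip1* (0.942), *Dlx1as* (0.940) and *Stxbp4* (0.935). Genes listed on the other strand overlap *Gfi1*, *Lhx3*, *Rfx1* and *Rfx3*, at most at 0.517, 0.429, 1.87 and 0.104 scaled FPKM, and the strandedness of the libraries is not given in the sources used here, so reads of such pairs may be shared.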

How the data were processed

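RNA-seq libraries of mouse cochlea at P14 were analysed, 2 for each turn and genotype. The authors trimmed 150 nt paired reads with fastp 0.20.0, aligned them to mm10 with STAR 2.7.3a, kept unique reads and deposited FPKM calculated with StringTie 2.0. The read counts behind the authors' own tests (DESeq2 1.30.0) were not used here, and 0 sample columns were left out.

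A scaling factor per library (0.917 to 1.06) was taken as the median of ratios over 11552 genes that reached 1 FPKM throughout. limma 3.58.1 in R 4.3.3 then compared log2(scaled FPKM + 1) of 16215 genes, with a mean for each of the 6 groups in a shared fit (eBayes with trend, two-sided, 6 residual degrees of freedom and 2.78 prior). *Atoh1* and *Insm1*, below the filter, were compared by an exact permutation within turns. No steps of whole reads are visible in the deposited values, which leaves depth unknown, and 0 means listed at 0. Coordinates are those of the table, and those of *Gfi1* and *Rfx3* differ from GENCODE M21. The fit was tested on simulated data. The 8 factors and all lists were chosen with earlier results of these data known, so no list is independent support. Genes named are the 8 factors, the 3 genes most correlated with each, the 3 highest genes and the called factors of the lists, and *Gjb2*, though not all of these are reported. *Ush1c*, *Otof*, *Espn*, *Slc26a5*, *Drc1*, *Otog*, *Prox1*, *Ikzf2*, *Prx*, *Gldn*, *Egr2* and *Pllp* were named after their values were seen. Alternatives were a pseudocount of 0.1, no filter, a filter of 5 FPKM, FPKM as deposited, quantile normalization, only the libraries compared, library weights, a replicate block, an adjusted p under 0.05 and each library left out. matplotlib 3.10.9 (Python 3.11.15) drew the figures.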

Additional observations from a re-analysis of the deposited data

Results flagged for a closer look

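The genotype difference of *Pou4f3* differed between the basal and the middle turn by −3.65 on the log2 scale (adjusted p = 0.00426 from limma), with −3.22 in the basal and 0.43 in the middle turn. That of *Gfi1* differed by −3.45 (adjusted p = 0.00359), with −2.74 in the basal and 0.71 in the middle turn. Both are differences between turns in the same contrast, tested as an interaction. They take the middle and basal pieces as labelled, and whether these correspond between the genotypes cannot be told from the values. Set against the other turn of the other genotype, *Pou4f3* had −2.27 for homozygous basal against wild-type middle (adjusted p = 0.0656). It had −0.53 for homozygous middle against wild-type basal (adjusted p = 0.878). No factor was called in limma, and in each comparison 2 factors had an unadjusted p under 0.05. Over all genes, 2267 and 1132 had one. In the same libraries the neuron list summed to 2912 and 3117 scaled FPKM in the homozygous basal and 1523 and 1670 in the wild-type middle turn, against 15.7 and 809.7 in the wild-type basal and 357 and 51.6 in the homozygous middle turn, and its part in these differences was not tested. Groups of 2 libraries are too small to test a sample as standing apart from its group.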

How the results depend on the processing

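Of 855 values of the 6 tested factors under the alternatives, 788 kept their direction and their side of the threshold, 32 lost a call, 17 gained one and 18 changed sign. The 2 calls of the basal turn became 4 with a pseudocount of 0.1 or an adjusted p under 0.05, and 0 without a filter, with only the libraries compared or with library weights, and lay between 0 and 2 with a library left out. For the basal minus middle difference, the 2 calls became 4 with a pseudocount of 0.1, FPKM as deposited or an adjusted p under 0.05, and 0 without a filter or with only the libraries compared (0 to 3 with a library left out). With an adjusted p under 0.05, 2 factors were called for the mean of the turns and 1 between the wild-type middle and apical turns, where library weights also gave 1. The call between the homozygous basal and apical turns became 3 with a pseudocount of 0.1 or an adjusted p under 0.05, 2 with FPKM as deposited, and 0 without a filter or with only the libraries compared (0 to 4 with a library left out). The call between the homozygous basal and middle turns became 2 with a pseudocount of 0.1 or an adjusted p under 0.05 and 0 without a filter or with only the libraries compared (0 to 2). Of the hair cell list, the 3 basal calls became 0 with only the libraries compared, 1 with library weights and 11 with an adjusted p under 0.05 (2 to 4), and the 1 middle call became 0 with a pseudocount of 0.1, without a filter, with 5 FPKM or with only the libraries compared, 2 with library weights and 4 with an adjusted p under 0.05 (0 to 2). Fitting only the libraries compared leaves 4 or fewer libraries for most comparisons. Between genotypes it gave 0 calls over all genes in the basal and in the middle turn. The cause of the other changes was not tested.

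Values near 0 changed sign. *Lhx3* in the apical turn was 0.043 and the *Rfx1* basal minus apical effect −0.029 after quantile normalization, *Rfx3* in the middle turn was 0.032 as deposited, and *Atoh1* 0.028 with a pseudocount of 0.1. With a library left out, *Pou4f3* in the middle turn lay between −0.25 and 1.097, *Lhx3* in the apical turn between −0.13 and 0.044, *Rfx1* between −0.51 and 0.16 in the basal turn and −0.070 and 0.15 over the turns, its basal minus apical effect between −0.30 and 0.36, and *Rfx3* between −0.0079 and 0.48 for middle minus apical and −0.31 and 0.18 for basal minus apical. Over all genes, 0 to 1954 were called in the basal turn across the alternatives (696 as reported), 4 to 258 in the apical (29), 0 to 475 in the middle (29) and 14 to 296 for the mean of the turns (61). Depth is unknown, so its limit cannot be given.

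Repeat numbers do not pair the libraries: deviations of same-numbered libraries correlated between −0.43 and 0.45 over 15 pairs of groups, 4 of them over 0.1. With a replicate block, 0 factors were called between the homozygous basal and apical or basal and middle turns and 0 hair cell genes in the middle turn. Over all genes the block gave 177 basal calls. No other count of factors changed by over 1.5 times under the block.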
